A study of Mus musculus with 13 samples.

Results

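The genes described here are the 8 genes of MHC class II antigen presentation chosen by name and found in the table by their Entrez identifiers. They are H2-Aa, H2-Ab1 and H2-Eb1, Cd74, H2-DMa, H2-DMb1 and H2-DMb2, and Ciita, 8 of the 23366 genes measured. Expression was measured by RNA sequencing of whole pancreas from 13 female mice, with a single library per mouse. All mice were of the reprogrammable strain i4F-B, in which doxycycline switches on OSKM (Oct4, Sox2, Klf4 and c-Myc) from a ubiquitously active system whose cassette sits within Pparg. The 4 young mice were 13 weeks old and the 5 old mice 55 weeks old, and neither group received doxycycline. The 4 old-OSKM mice drank doxycycline for 1 week and recovered for 2 weeks, and their labels give an age of 58 weeks. Doxycycline itself and the factors it induces cannot be told apart with these groups, and the old and old-OSKM groups also differ by 3 weeks of age. Mice are numbered within their group in accession order, so that the numbers carry no pairing.

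MHC class II molecules are pairs of an alpha and a beta chain that carry peptides from taken-up proteins to the cell surface, where CD4+ T cells read them. Newly made pairs bind the invariant chain, encoded by Cd74, which is cut away by lysosomal proteases, and the DM heterodimer then removes its last fragment and lets peptides in. In mice this machinery belongs mainly to dendritic cells, B cells and macrophages, and the coactivator CIITA switches on its genes through a promoter element made of W/S, X and Y boxes. Pancreas is mostly exocrine tissue, so that most of its RNA comes from acinar cells.

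Of the 8 genes, 6 lie within 1 stretch of chromosome 17. In the GRCm38.p6 annotation, which is the assembly of mm10, the stretch from H2-DMa to H2-Eb1 spans chr17:34119693-34316674 and holds 11 genes of the table. H2-DMa lies at 34119693 to 34139101, H2-DMb2 at 34143229 to 34151553, H2-DMb1 at 34153191 to 34160229, H2-Ab1 at 34263227 to 34269418, H2-Aa at 34282744 to 34287823 and H2-Eb1 at 34305867 to 34316674. Ciita lies on chromosome 16 at 10480014 to 10531064, and Cd74 on another chromosome.

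Promoter sequences are shown for 3 of the genes because members of the set varied together between mice. The RefSeq table of promoters held windows from 250 bases before to 50 bases after a start for 5 of the 8 genes, H2-Aa, H2-Eb1, H2-DMa, H2-DMb1 and H2-DMb2. The windows were searched on both strands for the Y box letters TGATTGG and for the X box letters ACNGATG, which were chosen after the sequences were seen, and the letters of these motifs do not overlap. The lines below give bases 130 to 21 before the start of H2-Eb1 (chr17:34305737-34305846, plus strand), H2-Aa (chr17:34287844-34287953, minus strand) and H2-DMb2 (chr17:34145119-34145228, plus strand), 5′ to 3′, with the matches in capitals. The H2-DMb2 stretch lies inside the annotated span of that gene, before a downstream start.
H2-Eb1: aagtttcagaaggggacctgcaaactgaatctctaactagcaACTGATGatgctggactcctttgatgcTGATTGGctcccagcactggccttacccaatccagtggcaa
H2-Aa: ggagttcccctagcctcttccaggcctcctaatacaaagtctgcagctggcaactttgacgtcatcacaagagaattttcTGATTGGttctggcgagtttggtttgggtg
H2-DMb2: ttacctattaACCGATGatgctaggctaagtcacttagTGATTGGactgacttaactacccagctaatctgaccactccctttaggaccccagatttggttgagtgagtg

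The Y box letters were present in 4 of the 5 genes with a window, which were H2-Aa, H2-Eb1, H2-DMb1 and H2-DMb2, against 7.82% of all 32851 promoter windows. The X box letters were present in the same 4 genes, against 9.85% of all windows, and 0.703% of all windows held both motifs. Because letters were chosen after the sequences were seen, these counts are a description and no test of enrichment. In H2-Eb1 the X box match began 88 and the Y box match 61 bases before the start, 27 bases apart. In H2-DMb2 they began at 120 and 92 bases, and in H2-DMb1, whose window is not printed, at 91 and 63 bases, 28 bases apart in each. In H2-Aa the Y box match began 50 bases before the start, while the only X box match was on the other strand, 232 bases before the start and outside the printed stretch. A match describes the letters only, and the windows of H2-DMa held neither motif.

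In untreated pancreas the classical chains and Cd74 were well above the typical gene, and the DM genes and Ciita were near it. The unit is log2 RPKM, in which reads are scaled to transcript length and to the library, so that levels can be compared between genes per length. Cd74 had the highest level, with a mean log2 RPKM of 3.31 ± 0.31 (SD, n = 4) in young and 3.30 ± 0.27 (n = 5) in old mice, and over the 13 mice its mean was above that of 98.6% of all genes. H2-Aa followed with 2.23 ± 0.27 in young and 2.34 ± 0.31 in old mice, H2-Ab1 with 1.83 ± 0.23 and 1.87 ± 0.32, and H2-Eb1 with 1.49 ± 0.31 and 1.48 ± 0.31. This order, Cd74, H2-Aa, H2-Ab1 and then H2-Eb1, held in each of the 13 mice, and the smallest log2 ratio between neighbours in it was 0.16, between H2-Ab1 and H2-Eb1. Below them came H2-DMb1, H2-DMa, H2-DMb2 and Ciita, with group means between -0.33 and -1.30 in untreated mice, and these 4 overlapped each other.

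The levels in single mice are given first for the chains that bind peptide. H2-Aa, the alpha chain of the I-A molecule, had log2 RPKM of 2.51, 1.94, 2.06 and 2.41 in the young mice, 2.50, 2.10, 2.05, 2.79 and 2.26 in the old mice, and 4.26, 2.37, 2.63 and 3.51 in old-OSKM mice 1 to 4. H2-Ab1, its beta chain partner, had 1.92, 1.55, 1.75 and 2.08 in young, 2.16, 1.78, 1.41, 2.20 and 1.78 in old, and 3.73, 1.91, 2.17 and 2.95 in old-OSKM mice. H2-Eb1, the beta chain of the I-E molecule, had 1.76, 1.15, 1.31 and 1.73 in young, 1.67, 1.35, 1.14, 1.93 and 1.33 in old, and 3.51, 1.71, 1.76 and 2.73 in old-OSKM mice. For each of the 3 chains old-OSKM mice 1 and 4 were above every untreated mouse, old-OSKM mice 2 and 3 lay among the untreated mice, and young and old mice overlapped.

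Cd74, the invariant chain that guards the peptide groove, had high and low values in much the same mice at a higher level. In GRCm38.p6 it lies on chromosome 18 at 60803849 to 60812652. Its log2 RPKM was 3.49, 2.99, 3.12 and 3.65 in young, 3.49, 3.18, 2.96, 3.65 and 3.21 in old, and 5.29, 3.40, 3.63 and 4.64 in old-OSKM mice. On the linear scale the 9 untreated mice lay between 7.80 and 12.6 RPKM, old-OSKM mice 2 and 3 at 10.5 and 12.4 RPKM, and old-OSKM mice 4 and 1 at 24.96 and 39.2 RPKM.

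The genes of the DM heterodimer were lower and more scattered. H2-DMa, its alpha chain, had log2 RPKM of -0.05, -1.38, -0.89 and -0.68 in young, -0.13, -0.72, -0.79, -0.41 and -0.69 in old, and 1.05, -0.55, -0.17 and -0.06 in old-OSKM mice. H2-DMb1, a beta chain, had -0.29, -0.45, -0.79 and 0.20 in young, -0.30, -1.11, -0.69, 0.03 and -1.2 in old, and 1.2, -0.31, -0.11 and 0.46 in old-OSKM mice. H2-DMb2, the other beta chain, had -0.85, -0.71, -1.0 and -1.2 in young, -0.36, -1.52, -1.61, -0.91 and -2.08 in old, and 0.52, -1.43, -0.69 and -0.80 in old-OSKM mice. Old-OSKM mouse 1 was above every untreated mouse for all 3 genes, while old-OSKM mouse 4 was above them for H2-DMb1 only. Of the 50-base stretches in H2-DMb1 transcripts, 27.2% also occur in those of H2-DMb2, so that the split of reads between these genes is uncertain. The other 6 genes share no such stretch with another gene, apart from 0.195% of those of Ciita.

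Ciita, the coactivator of the whole set, was among the lowest. Its log2 RPKM was -0.97, -1.08, -1.22 and -1.04 in young, -0.92, -0.72, -1.63, -0.79 and -0.79 in old, and 0.69, -1.12, -0.88 and -0.33 in old-OSKM mice. As for the chains, old-OSKM mice 1 and 4 were above all untreated mice and mice 2 and 3 were not.

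**Figure D1:**
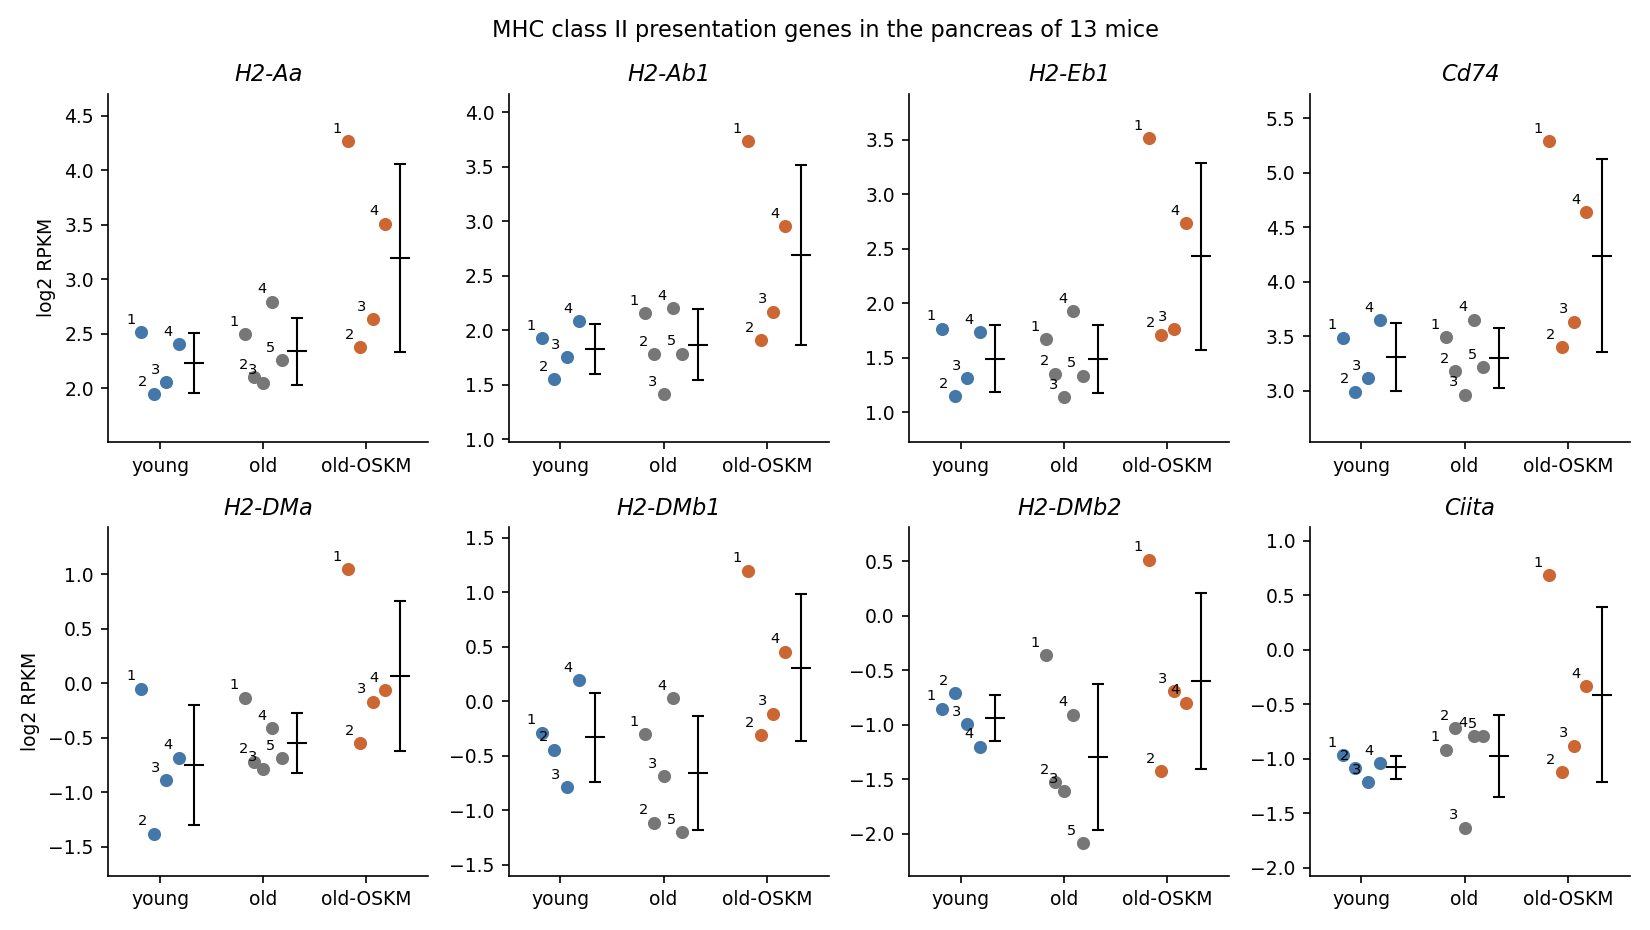
Log2 RPKM of the 8 genes (vertical axes, all of the same span) in young, old and old-OSKM mice, with the mouse number beside each point and the group mean ± SD to its right. Old-OSKM mouse 1 is the highest mouse in every panel, reaching 5.29 for Cd74, and old-OSKM mice 2 and 3 stay below the highest untreated mouse in every panel.

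Age was the first comparison, old against young mice without treatment. A gene was called where limma gave a raw p under 0.01 together with a change of more than 1.5-fold. None of the 8 genes was called, where 0.886% of all genes were. The differences in log2 RPKM, old minus young, ran from -0.36 for H2-DMb2 to 0.20 for H2-DMa, and their median was 0.02 against 0.00 for all genes. Raw p-values in limma ran from 0.366 to 0.991, all adjusted p-values were 1, and 0 of the 8 genes had a raw p under 0.05, against 5.52% of all genes. The means of 4 of the 8 were higher in old mice, against 54.4% of all genes, and the groups overlapped for each of the 8, where they did not overlap for 2.71% of all genes. For Cd74 the difference was -0.01 with a 95% confidence interval of -0.76 to 0.74, whose upper end is a rise of 1.67-fold. For H2-DMb2 the interval ran from -1.22 to 0.50. The limma intervals and p-values rest on a spread that the fit shares among the 3 groups, the old-OSKM mice included. For Cd74 the SD was 0.88 in old-OSKM mice, against 0.31 in young and 0.27 in old mice. The old-OSKM mice thus add to the width of its interval for age.

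The second comparison was old-OSKM against old mice. The mean of each of the 8 genes was higher in old-OSKM mice, against 36.9% of all genes, but none was called, where 0.753% of all genes were. H2-Eb1 was 0.94 higher in log2 RPKM (SE 0.34, 95% interval 0.20 to 1.69), which is 1.92-fold. Cd74 was also 0.94 higher (interval 0.19 to 1.69) and H2-DMb1 0.96 higher (interval 0.21 to 1.71). H2-Aa and H2-Ab1 differed by 0.86 (interval 0.12 to 1.59) and 0.82 (interval 0.12 to 1.53). The differences of H2-DMb2, H2-DMa and Ciita were 0.70, 0.61 and 0.56, with intervals that included 0. Raw p in limma was thus under 0.05 for 5 of the 8, a level that 8.07% of all genes reached, and adjusted p-values ran from 0.547 to 0.608. The median difference was 0.84, against -0.04 for all genes. The old and old-OSKM groups overlapped for all 8 genes, where 1.73% of all genes had groups that did not. Two-sided exact permutation tests gave p between 0.0635 for H2-Eb1 and 0.238 for Ciita, and the smallest p possible with 4 against 5 mice is 0.0159. In whole tissue, more cells that express these genes and more of their RNA per cell cannot be told apart.

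Against young mice, which is a comparison with the same 4 old-OSKM libraries, the differences were of similar size. None of the 8 genes was called, where 0.625% of all genes were, and a raw p under 0.05 in limma was reached by 5 of the 8, against 5.07% of all genes. H2-Aa was 0.97 higher (interval 0.19 to 1.74), H2-Eb1 0.94, Cd74 0.93, H2-Ab1 0.86 and H2-DMa 0.82 (interval 0.07 to 1.56). All 8 means were higher in old-OSKM mice, against 38.7% of all genes, and the groups overlapped for each of the 8, where 1.9% of all genes had groups that did not. Ciita and H2-DMb1 differed by 0.67 and 0.64, and H2-DMb2 by 0.34 with an interval of -0.57 to 1.25. Adjusted p-values ran from 0.706 to 0.748, and exact permutation p-values from 0.0857 to 0.571, where 4 against 4 mice allow no p under 0.0286. The plot of group differences shows that the intervals of the 3 chains and Cd74 lie above 0 in both comparisons with old-OSKM mice and are centred near 0 for age.

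**Figure D2:**
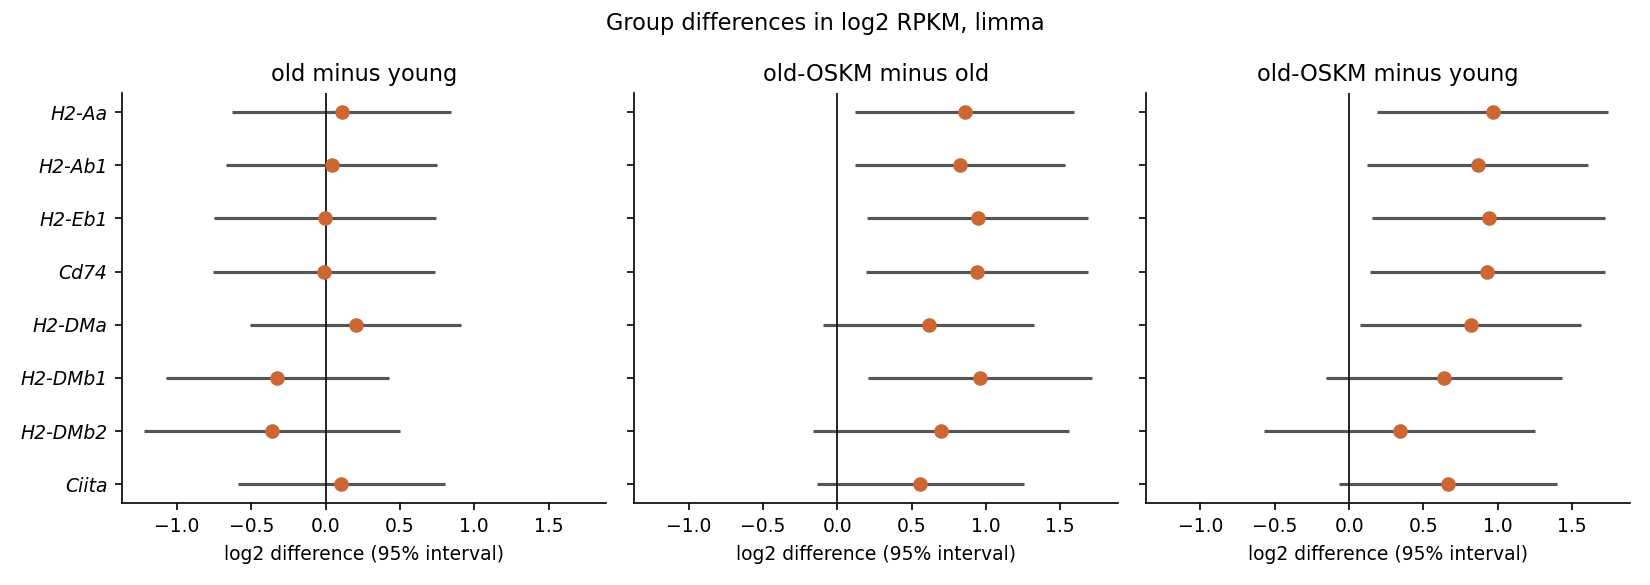
Difference in mean log2 RPKM (point) with its 95% confidence interval from limma (line) for each gene in the 3 comparisons. For age the 8 points lie between -0.36 and 0.20, and for old-OSKM minus old between 0.56 and 0.96.

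The higher means of the old-OSKM group rested on mice 1 and 4. Every one of the 8 genes had its highest value in old-OSKM mouse 1, the mouse in which 8.49% of all genes were highest. There they stood 1.47 (H2-DMb2) to 1.87 (H2-Aa) above the median of the other 12 mice on the log2 scale, 2.76 to 3.67-fold, while the median gene was 0.07 below. In old-OSKM mouse 4 Cd74 stood 1.2 above the median of the other mice, H2-Aa 1.12, H2-Eb1 and H2-Ab1 1.04, H2-DMb1 0.76, Ciita 0.61, H2-DMa 0.55 and H2-DMb2 0.16. The medians over the 8 genes were -0.08 in old-OSKM mouse 2 and 0.22 in old-OSKM mouse 3. The 4 mice of the group thus differed more among themselves than the 9 untreated mice did, with SDs of 0.83 to 0.88 for the chains and Cd74 against 0.23 to 0.32 in the untreated groups.

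Without old-OSKM mouse 1, 0 of the 8 genes had a raw p under 0.05 against old mice, and the median difference fell from 0.84 to 0.49. Without old-OSKM mouse 4 the count was 1, H2-DMb1, with a median difference of 0.76. Without both mice, a choice made after their values were seen, the median difference was 0.20 with raw p between 0.243 and 0.893 in limma, and Ciita was 0.03 lower than in old mice. Without old-OSKM mouse 2 the median difference was 1.11, 8 of the 8 genes had a raw p under 0.05 and 5 were called, and without old-OSKM mouse 3 there were 2 called. In the comparison with young mice, leaving out old-OSKM mouse 1 gave 1 gene with a raw p under 0.05, leaving out both gave 0, leaving out old-OSKM mouse 2 gave 4 called genes, and leaving out old-OSKM mouse 3 gave 1.

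**Figure D3:**
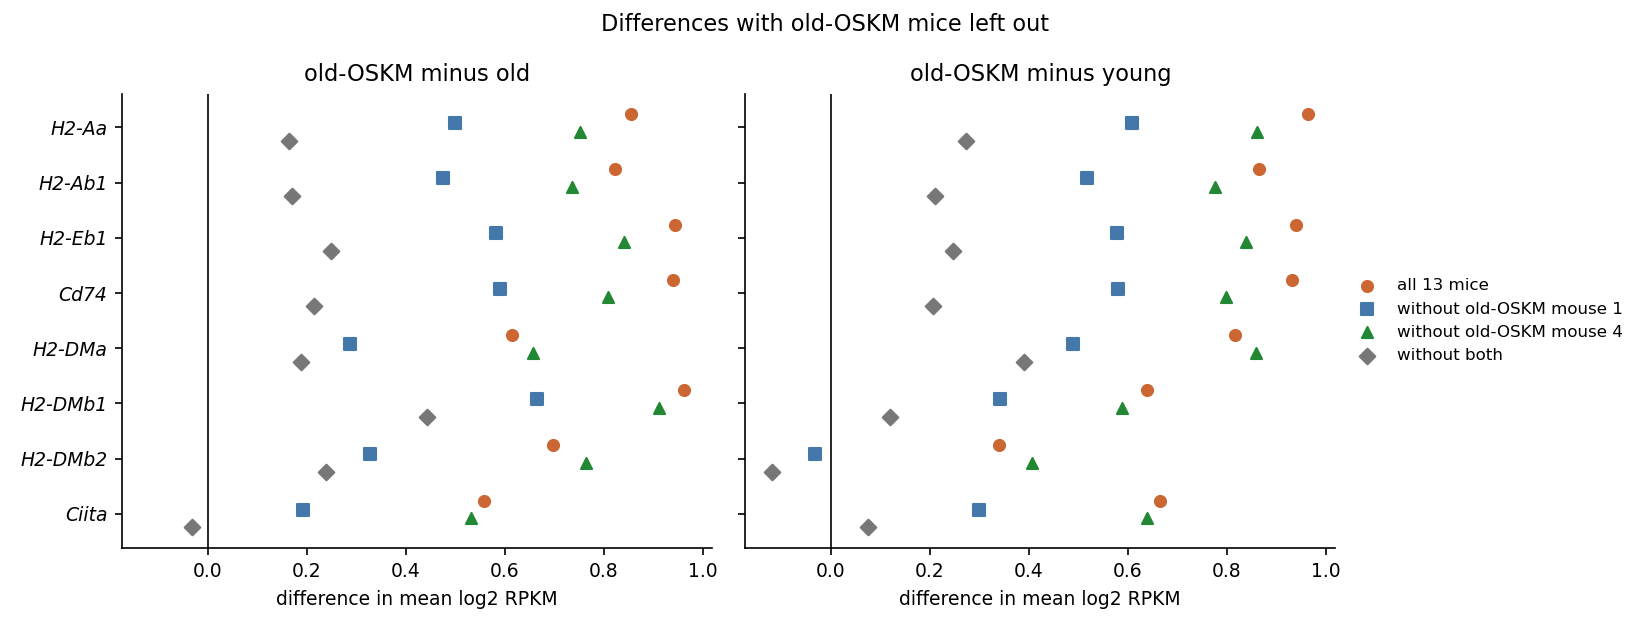
Difference in mean log2 RPKM of each gene for old-OSKM minus old (left) and old-OSKM minus young (right), with all 13 mice, without old-OSKM mouse 1, without old-OSKM mouse 4 and without both. The median difference against old mice is 0.84 with all mice and 0.20 without both.

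The genes did not all follow each other equally closely. Over the 13 mice the log2 RPKM of Cd74 had a Pearson r of 0.99 with H2-Aa, H2-Ab1 and H2-Eb1 (each permutation p = 1e-05, the smallest that 100000 resamples can give, adjusted over 7 genes 2.33e-05). The r was 0.90 with Ciita (permutation p = 0.00043), 0.89 with H2-DMb1 (permutation p = 4e-05), 0.87 with H2-DMa (permutation p = 9e-05) and 0.70 with H2-DMb2 (permutation p = 0.00976), and these 4 had adjusted p-values of at most 0.00976. Spearman's rho was 0.96, 0.98 and 0.95 for the 3 chains, 0.70 for Ciita (adjusted permutation p = 0.0101) and 0.54 for H2-DMb2 (adjusted permutation p = 0.0585). The 2 mice farthest from the median of Cd74 were old-OSKM mice 1 and 4. Without them r stayed at 0.93, 0.95 and 0.97 for H2-Aa, H2-Ab1 and H2-Eb1, and was 0.74 for H2-DMa and H2-DMb1, 0.52 for Ciita and 0.39 for H2-DMb2. The high r of Ciita and the r of H2-DMb2 thus rested largely on those mice, and rho without them was 0.51 and 0.40. Taken as deviations from the group means, the r of Cd74 was 0.99 with each of the 3 chains, 0.87 with Ciita, 0.85 with H2-DMb1, 0.82 with H2-DMa and 0.66 with H2-DMb2. Within single groups the r with H2-DMb2 was -0.70 in young, 0.71 in old and 0.86 in old-OSKM mice. That with every other member was positive in each group.

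The same block appeared in the ratios between genes. Among the 3 chains and Cd74, the SD over the 13 mice of the log2 ratio of a pair was 0.0712 to 0.116 for the 6 pairs. For the 22 pairs that include a DM gene or Ciita it was 0.23 to 0.507. The ratio of H2-Eb1 to Cd74 was the steadiest, with a mean log2 ratio of -1.82 and a range of -1.91 to -1.69. For the DM beta chains, the log2 ratio of H2-DMb2 to H2-DMb1 was -0.61 ± 0.55 in young (n = 4), -0.64 ± 0.39 in old (n = 5) and -0.91 ± 0.33 in old-OSKM mice (n = 4). Its differences between groups were -0.04, -0.26 and -0.30 with two-sided exact permutation p-values of 0.873, 0.349 and 0.343, adjusted over 3 tests 0.873, 0.524 and 0.524.

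The rest of the class II pathway was followed in a list of 33 further genes. None of them was called in any of the 3 comparisons, where 0.886%, 0.753% and 0.625% of all genes were for age, for old-OSKM against old and for old-OSKM against young. In that order 0, 6 and 5 of the 33 had a raw p under 0.05, against 5.52%, 8.07% and 5.07% of all genes. Of the 33, 18 were highest in old-OSKM mouse 1, against 8.49% of all genes.

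H2-Ob, the beta chain of DO that holds DM in check, had -2.92 ± 0.36 log2 RPKM in young, -3.41 ± 0.93 in old and -2.13 ± 0.80 in old-OSKM mice, which puts the last 1.28 above the second (95% interval 0.23 to 2.32, adjusted p = 0.547 in limma). These levels are very low, at most 0.491 RPKM, and old mice 2, 3 and 5 were at -4.10, -4.06 and -4.07. Only old-OSKM mouse 1, at -1.03, was above every untreated mouse, the highest of which was at -2.18. H2-Eb2, a second E beta chain, was near the bottom of the table in most mice and reached -1.5 in old-OSKM mouse 1. H2-Ea, the alpha chain that pairs with H2-Eb1 and is silent in some mouse haplotypes, lay between -3.01 and -2.76 in all 13 mice, old-OSKM mouse 1 included, and was singled out after its values were seen. At no more than 0.147 RPKM, its values may hold few or no reads. Ctss, the protease cathepsin S that trims the invariant chain in antigen-presenting cells, was 0.92 higher in old-OSKM than in old mice (interval 0.17 to 1.67, adjusted p = 0.547 in limma), with its highest value of 3.20 in old-OSKM mouse 1. Ctsl, cathepsin L, differed by -0.20 (interval -0.36 to -0.05, adjusted p = 0.547 in limma).

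Irf1, an interferon-induced factor that acts on Ciita, was 1.14 ± 0.14 in young, 0.90 ± 0.10 in old and 1.46 ± 0.43 in old-OSKM mice. Its old and old-OSKM mice did not overlap, though narrowly, with 0.74 to 1.03 in old and 1.04 to 2.00 in old-OSKM mice. Irf1 was the 1 gene of the 33 in the list for which this held, against 1.73% of all genes, so that the count is not read as a result. Its difference of 0.57 (interval 0.20 to 0.93) had an adjusted p of 0.547 in limma, and in fold it fell short of 1.5. Socs1, an inhibitor of interferon signalling, was 0.72 higher in old-OSKM than in young mice (interval -0.05 to 1.49).

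The factors that bind class II promoters had similar means in the 3 groups. In single mice Rfxap, also in this list, was lowest in old-OSKM mouse 1, at -0.23, against 0.04 to 0.51 in the other mice. Rfx5, a subunit of the RFX complex at the X box, had group means of -0.07 in young, -0.21 in old and -0.14 in old-OSKM mice, and Nfyb, a subunit of the factor NF-Y, 0.92, 0.84 and 0.84. None of the 7 genes of this list had a raw p under 0.05 in any comparison, and their summed level lay between 10.01 and 10.8 RPKM in all 13 mice. Old-OSKM mouse 1, with 10.04 RPKM, was inside that range.

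Marchf1, the ubiquitin ligase that removes class II from the surface, was 0.73 higher in old-OSKM than in young mice (interval 0.12 to 1.34, adjusted p = 0.706 in limma), and so was Cd83, which opposes it (interval 0.07 to 1.38, adjusted p = 0.706 in limma). Of the costimulatory genes, Cd86 had a mean 0.53 above that of old mice (interval -0.16 to 1.22) and Cd80 a mean 0.46 above that of young mice (interval -0.53 to 1.45). Marchf1, Cd83, Cd86 and Cd80 were all highest in old-OSKM mouse 1. Cd83 was at 0.06 there and at -1.12, -1.49 and -1.62 in old-OSKM mice 2 to 4, against -2.10 to -1.33 in untreated mice.

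The neighbours of the class II genes on chromosome 17 had the same highest mouse. The other 5 genes of the stretch, Psmb9 and Psmb8 of the immunoproteasome, the peptide transporter genes Tap1 and Tap2, and H2-Ob, were all highest in old-OSKM mouse 1. They stood 1.95, 1.87, 1.59, 0.77 and 1.89 above the median of the other mice for Psmb9, Psmb8, Tap1, Tap2 and H2-Ob.

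Markers of immune cells and of fat were high in the same mice as the class II genes. All 13 libraries had the acinar markers of pancreas, with a summed level of 12460 to 13196 RPKM over 10 genes. Quantile normalization nearly fixes this sum, and Ctrb1, Cela2a and Amy2a5 had identical values in every mouse. The sum therefore does not compare acinar content between mice. Ptf1a, the lowest gene of that list, was at 1.74 log2 RPKM in old-OSKM mouse 4. It was at 2.47 to 3.14 in untreated mice and 2.58 to 2.87 in old-OSKM mice 1 to 3. The 5 pan-leukocyte markers, led by Cd52, Laptm5 and Ptprc, summed to 4.0 to 5.5 RPKM in young, 3.96 to 6.43 in old and 4.47 to 18.7 in old-OSKM mice, and 5 of the 5 were highest in old-OSKM mouse 1. The 9 macrophage markers, led by Lyz2 and the complement genes C1qa and C1qb, summed to 15.2 to 27.0, 12.02 to 20.8 and 18.4 to 49.1 RPKM, with 49.1 in old-OSKM mouse 1 and 40.7 in old-OSKM mouse 4. Their counts of a raw p under 0.05 for old-OSKM minus old were 7 of 9, of which 1 was called, and for the pan-leukocyte list 1 of 5 with none called, where 8.07% of all genes had such a p and 0.753% were called.

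Lymphoid and dendritic markers were high in old-OSKM mouse 1, and in mouse 4 the B and T cell markers lay within the range of untreated mice. The 10 dendritic cell markers, of which 8 were highest in old-OSKM mouse 1, summed to 3.41 to 4.08 RPKM in young, 4.40 to 5.26 in old and 4.03 to 8.31 in old-OSKM mice. A large part of this sum is Zbtb46, which was highest in old mouse 3. Zbtb46 was called higher in old than in young mice, by 0.63 in log2 RPKM (interval 0.32 to 0.93, adjusted p = 0.219 in limma). It was the 1 called of these 10 genes for age, where 0.886% of all genes were. In the mean log2 RPKM of the list old-OSKM mice 1 and 4, at -0.53 and -1.53, were above all untreated mice, the highest of which was at -1.67. Of this list Xcr1 was called in old-OSKM against old mice, with a difference of 0.94 (interval 0.30 to 1.58, adjusted p = 0.547 in limma), and was singled out after its values were seen. It was 1 called of 10 genes, where 0.753% of all genes were called, and its level was very low, at most 0.326 RPKM. The 9 B cell markers summed to 1.36 to 2.22, 1.87 to 3.72 and 2.03 to 7.11 RPKM with 7 of 9 highest in that mouse, and the 8 T cell markers to 0.88 to 1.5, 1.26 to 2.53 and 1.35 to 7.59 RPKM with 8 of 8. The 5 plasma cell markers summed to 12.8 to 17.8, 13.6 to 19.2 and 15.6 to 23.1 RPKM, most of it from Derl3 with group means of 12.3, 11.8 and 11.7 RPKM. Jchain, the joining chain of secreted antibodies, had 0.658, 2.62 and 4.14 RPKM and was called higher in old than in young mice, with a log2 difference of 2.35 (interval 0.80 to 3.89, adjusted p = 0.551 in limma), and in old-OSKM than in young mice, with 3.04 (interval 1.41 to 4.67, adjusted p = 0.584 in limma). Blk of the B cell list and Cd8a of the T cell list had mean log2 RPKM under -3 over the 13 mice, though Cd8a was at -0.51 in old-OSKM mouse 1 and Blk at -1.62 there and at -1.47 in old mouse 1. In old-OSKM mouse 4 the B and T cell sums were 2.68 and 2.28 RPKM.

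Among the other lists, the 5 adipocyte markers, led by Adipoq and Cfd, summed to 5.74 RPKM in old-OSKM mouse 1 and 2.06 RPKM in old-OSKM mouse 4, against 0.51 to 1.27 RPKM in untreated mice. The sum of the 5 lymph node and high endothelium markers was 3.79 RPKM in old-OSKM mouse 1 and 2.91 RPKM in mouse 4, against 1.18 to 2.19 RPKM in untreated mice, with the higher values in Cxcl13, Ccl19 and Ccl21a. The high endothelium genes Glycam1 and Madcam1 had their lowest log2 RPKM of the 13 mice in old-OSKM mouse 4, -2.9 and -3.61, and Glycam1 was at -2.8 in old-OSKM mouse 1, below every untreated mouse. Both genes were very low throughout, with at most 0.288 and 0.155 RPKM. The counting depth is unknown, so that the order of mice at such levels is not read as a difference in expression. Islet markers were at their lowest sum, 78.6 RPKM, in old-OSKM mouse 1 and at their highest, 505 RPKM, in old-OSKM mouse 4, against 151 to 391 RPKM in untreated mice. Old-OSKM mouse 3, at 116 RPKM, was also below all untreated mice. Fibroblast and stellate markers summed to 72.8 RPKM in old-OSKM mouse 4, endothelial markers to 20.99 RPKM and duct markers to 39.8 RPKM, each above all other mice. The part of these cell types in the class II values was not tested.

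**Figure D4:**
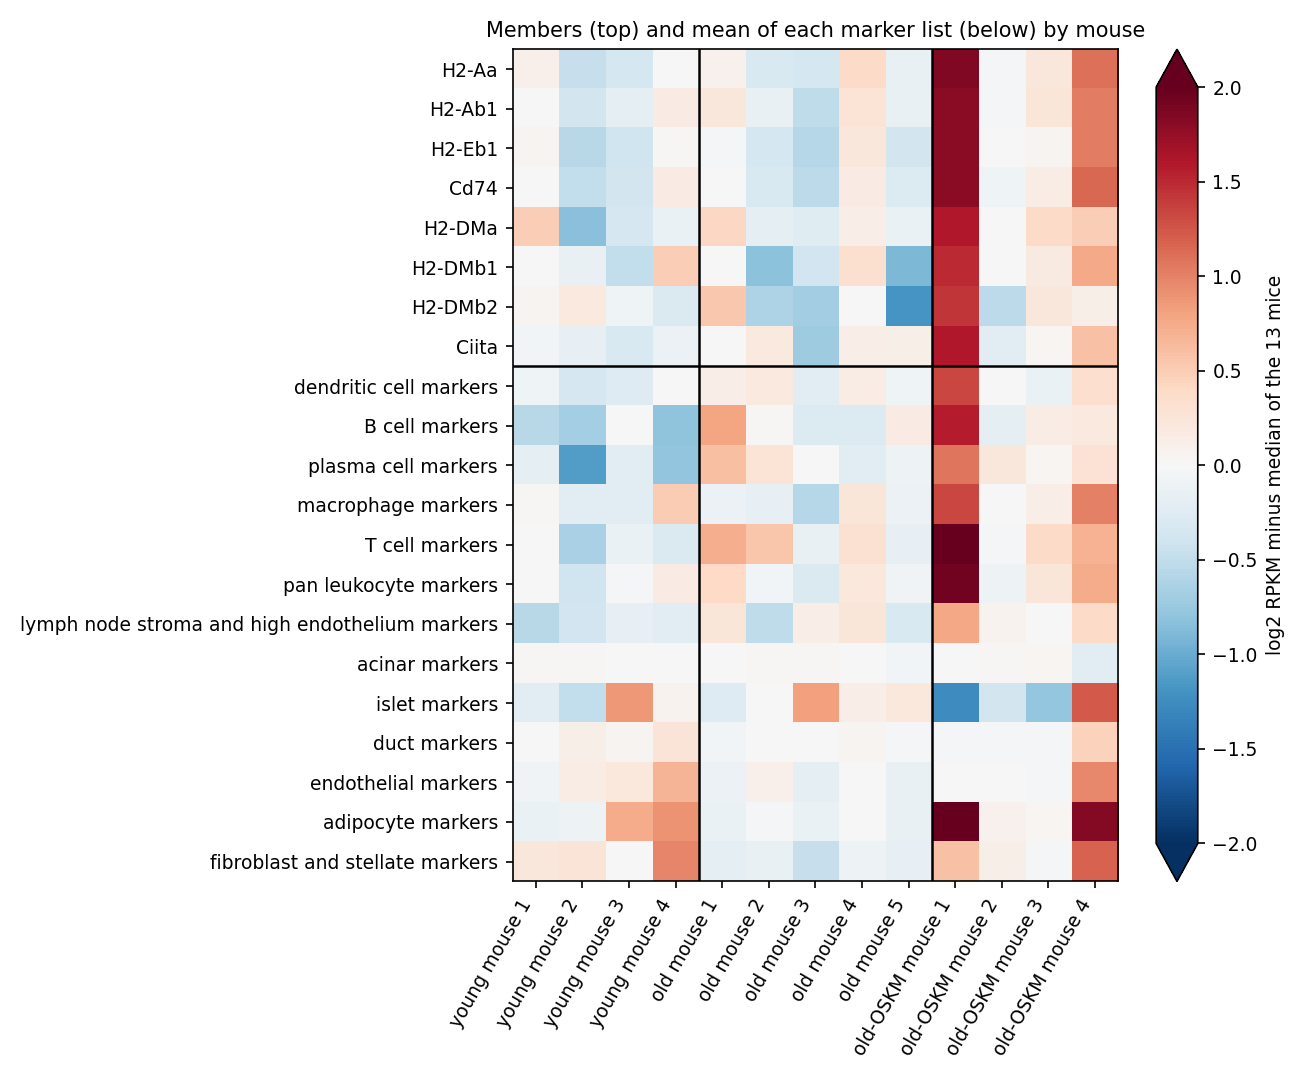
Log2 RPKM minus the median of the 13 mice (colour, red higher) for the 8 genes above the line and for the mean of each marker list below it, by mouse. Both old-OSKM mice 1 and 4 are above every untreated mouse for the chains, Cd74, H2-DMb1 and Ciita and for the dendritic cell, macrophage, pan-leukocyte and adipocyte lists. Islet markers are low in old-OSKM mouse 1, less so in old-OSKM mouse 3, and high in old-OSKM mouse 4.

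Set against the mean log2 RPKM of the 5 pan-leukocyte markers, old-OSKM mouse 1 was no longer the highest mouse for any of the 8 genes. That mean was 1.82 in old-OSKM mouse 1, 0.63 in mouse 4, -0.20 and 0.13 in mice 2 and 3, and -0.50 to 0.29 in the 9 untreated mice. Cd74 minus that mean was 3.59, 3.49, 3.24 and 3.58 in young, 3.20, 3.34, 3.36, 3.55 and 3.38 in old, and 3.47, 3.6, 3.5 and 4.01 in old-OSKM mice. Old-OSKM mouse 1 held place 8 of the 13 mice on this scale for Cd74 and H2-Aa, place 10 for H2-Ab1 and place 5 for H2-Eb1, while old-OSKM mouse 4 was the highest mouse for these 4 genes. For H2-DMa, H2-DMb1, H2-DMb2 and Ciita old-OSKM mouse 1 held places 12, 10, 10 and 11, and old-OSKM mouse 4 places 9, 5, 12 and 7.

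Set against the mean of the 9 macrophage markers instead, the order changed. Old-OSKM mouse 1 was then the highest mouse for H2-Aa, H2-Ab1, H2-Eb1 and Cd74, with 3.19 for Cd74 against 2.36 to 2.84 in untreated mice, and old-OSKM mouse 4 held places 5, 7, 4 and 2 for these genes. For H2-DMa, H2-DMb1, H2-DMb2 and Ciita mouse 1 held places 4, 2, 4 and 2, and mouse 4 places 11, 10, 12 and 12. For the chains and Cd74, mouse 1 was therefore high relative to macrophage markers and ordinary relative to markers of all leukocytes. Mouse 4 was high in the chains and Cd74 relative to markers of all leukocytes. The DM genes and Ciita did not share these places.

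**Figure D5:**
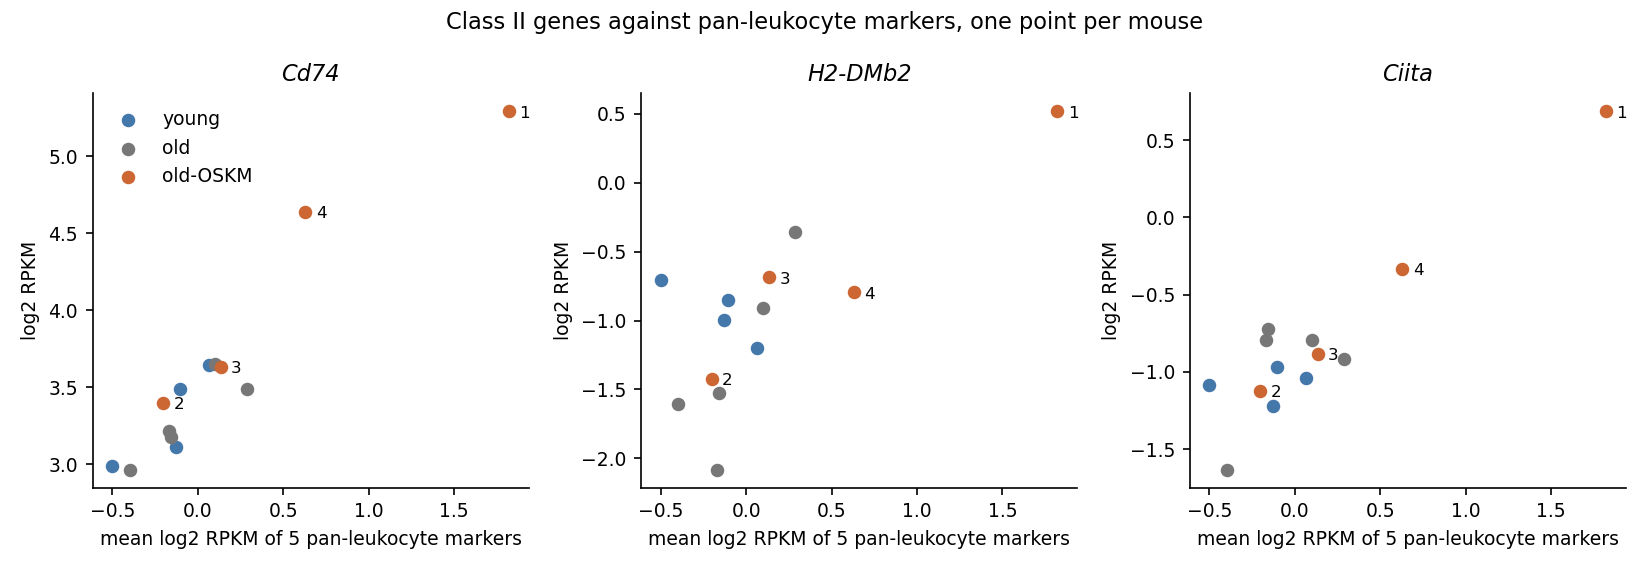
Log2 RPKM of Cd74, H2-DMb2 and Ciita (vertical axes) against the mean log2 RPKM of 5 pan-leukocyte markers (horizontal axes), 1 point per mouse, with the old-OSKM mice numbered. Cd74 and Ciita lie along a rising band that ends at old-OSKM mouse 1 (1.82 on the horizontal axis), while H2-DMb2 is scattered among the other 12 mice.

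The pattern of the class II set over the mice was also compared with that of every other gene. Among the 8404 genes other than members with a mean log2 RPKM over 0, likeness was the Pearson r over the 13 mice with the mean z-score of the 8 genes, given as a description. It was led by Mpeg1, which encodes a pore-forming protein of macrophages, with r of 0.98, followed by Adgre1 (the macrophage antigen F4/80), Laptm5 and Lcp1 with 0.97. Ctss, Lgmn, Ifih1 and Cotl1 had 0.96, Unc93b1 0.95 and Pfn1 0.94. Adgre1 and Laptm5 are also in the marker lists, and Ctss and Lgmn in the pathway list. The filter used the mean over all mice, so that high values in old-OSKM mice could admit a gene. Adgre1 passed, with a mean of 0.09, only through that group. Its means were -0.09 in young, -0.17 in old and 0.59 in old-OSKM mice. Without old-OSKM mice 1 and 4 the r over 11 mice was 0.90 for Mpeg1 and Adgre1, 0.91 for Lcp1 and 0.69 for Unc93b1, the lowest of the 10.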

How the data were processed

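Gene expression was measured by RNA sequencing of rRNA-depleted pancreas RNA in 4 young, 5 old and 4 old-OSKM mice. The deposited values are log2 RPKM per Entrez gene: the authors aligned paired reads of 50 bases with STAR 2.3.0e to mm10, estimated RPKM per isoform with Casper, leaving out reads with 5 or more locations, summed it per gene and quantile normalized the log2 values. The authors' correction by read total is not part of these values, and the counting depth of each library is unknown. Sorted values differed between mice by at most 0.0116, and libraries had pairwise Pearson r of 0.955 to 0.986 over genes.

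All 23366 genes were fitted in limma 3.58.1 (R 4.3.3) with 3 groups, no covariate, no filter and no pseudocount, after a test on simulated data, and p-values were adjusted by Benjamini-Hochberg over all genes. Exact permutation tests over mice, correlations (100000 resamples) and figures used Python 3.11.15 with scipy 1.17.1. Symbols and positions came from RefSeq on GRCm38.p6.

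The members and lists were chosen with earlier results of these data known. Named were all 8 members, the 2 genes with the smallest raw p in each pathway list, the leading markers of each list and the 10 genes most alike. Trac, planned as a T cell marker, was not used here.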

Additional observations from a re-analysis of the deposited data

Results flagged for a closer look

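Ciita in old mouse 3 was flagged as a sample far from the others of its group. Its log2 RPKM was -1.63, the lowest of the 5 old mice, and the nearest was -0.92. Old mouse 3 also had the lowest Cd74 and H2-Ab1 of all 13 mice. In all, 24 pairs of a gene and a group were looked at and 1 was flagged, where chance flags about 1 in 20.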

How the results depend on the processing

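No paired analysis was possible because the mice of the 3 groups carry no shared number in the labels. The counts of called members and pathway genes were 0 in all 3 comparisons under repeated quantile normalization, centring on each mouse's median, pseudocounts of 1 and 0.1, filters at a mean log2 RPKM over 0 or -2, the 2 groups alone, trend and robust variance, a covariate for the run of identifiers and the pair of old-OSKM mice 1 and 4 left out. All 4 old-OSKM mice belong to the same run of identifiers, and with the run as a covariate 5 of 8 members against old mice and 2 of 8 against young mice had a raw p under 0.05. Leaving out a mouse in turn gave 0 to 5 called members and 0 to 3 pathway genes for old-OSKM minus old, and 0 to 4 and 0 to 2 for old-OSKM minus young, with the highest counts without old-OSKM mouse 2. Without old mouse 4, H2-DMb1 was called against old mice, and without young mouse 1, H2-DMa was called against young mice. The direction for age was not stable, with ranges over left-out mice of -0.0046 to 0.20 for H2-Aa, -0.051 to 0.15 for H2-Ab1, -0.12 to 0.088 for H2-Eb1, -0.12 to 0.10 for Cd74 and -0.0077 to 0.44 for H2-DMa. For H2-DMb2 the difference of old-OSKM minus young ranged from -0.032 to 0.62, was -0.12 without old-OSKM mice 1 and 4, and for Ciita that of old-OSKM minus old was -0.031 without them. The log2 ratio of H2-DMb2 to H2-DMb1 differed for age by -0.30 to 0.10 over left-out mice and by 0.0019 with a pseudocount of 0.1. The r of Cd74 with H2-DMb2 ranged from 0.37 without old-OSKM mouse 1 (permutation p = 0.237) to 0.77. Over all genes the 207, 176 and 146 calls became 16, 2 and 8 with a pseudocount of 1, 116, 77 and 76 with 0.1, and 44, 35 and 19 among genes with a mean over 0, and 136, 104 and 81 over -2. For old-OSKM minus old they were 94 to 338 over left-out mice and 80 without old-OSKM mice 1 and 4. The depth is unknown, so that counting error could not be set apart from the spread between mice. The causes of these changes were not tested.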
